A study of Rattus norvegicus with 6 samples.

Results

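Glutamate receptor genes of the NMDA and metabotropic classes were followed in dorsal root ganglia (DRG) after chronic constriction injury (CCI) of the sciatic nerve. The genes were Grin1, Grin2a, Grin2b, Grin2c, Grin2d, Grin3a, Grm3, Grm4, Grm5 and Grm7. They were chosen by name, and each was located by its symbol among the 43350 gene rows of the deposited table. Where several rows carried a symbol, a row of protein-coding type was taken first and then the row with the most counts. All 10 were found. The CCI group (n = 3) and the sham group (n = 3) consisted of male Sprague-Dawley rats, aged 6 to 8 weeks in the methods, which also describe 2 to 3 weeks of acclimatization. In CCI rats absorbable suture was knotted loosely around the left sciatic nerve, and in sham rats the nerve was exposed and left untied. Ganglia of the operated side were collected at lumbar levels on day 11, and RNA depleted of ribosomal RNA was sequenced. The methods describe a single rat per library, which is the reading used here, although the library protocol mentions pooling and the labels list no treatment for the sham rats.

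Total counts per library were 81131861, 80479671 and 75423546 for CCI 1, 2 and 3, against 87615743, 80046488 and 83695350 for sham 1, 2 and 3. A level is given below as FPKM, the authors' count divided by row length and by library total, so that genes of different length can be compared. CPM is a count relative to the scaled library total. Fold changes are on the log2 scale, CCI over sham, from edgeR's quasi-likelihood test. Testing was limited to rows whose FPKM averaged 0.5 or more, and a gene was called when its unadjusted p was under 0.05 and its log2 fold change was 0.58 or more in either direction. With 3 rats per group an exact permutation p cannot go below 0.1, so p-values come from the model fitted across all rows. Positions are those of the deposited table for the rat genome that the authors name V101.

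NMDA receptors are cation channels assembled around the obligatory GluN1 subunit, encoded by Grin1, together with GluN2 subunits from Grin2a to Grin2d or GluN3 subunits from Grin3a and Grin3b. The GluN2 subunits bind glutamate, and GluN1 and GluN3 bind glycine. Metabotropic receptors signal through G proteins: those of group I, such as Grm5, couple to phospholipase C, whereas those of group II, such as Grm3, and of group III, such as Grm4 and Grm7, lower cyclic AMP. Primary sensory neurons release glutamate, and receptors of all these kinds have been placed on their terminals or cell bodies.

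The tissue was checked against marker lists. All 12 markers of sensory neurons were present, and their summed level was 5426, 5608 and 5075 FPKM in CCI 1, 2 and 3 and 5806, 5896 and 5638 FPKM in sham 1, 2 and 3. The most abundant of them, Tubb3, measured 1388 ± 89.1 FPKM in the CCI group and 1109 ± 81.9 FPKM in the sham group (SD, n = 3). None of these 12 was called, while Nefl, a neurofilament gene, had a log2 fold change of -0.57 (adjusted p = 0.0457, edgeR quasi-likelihood test with Benjamini-Hochberg adjustment). Without CCI 2 or sham 1, Nefl passed the fold limit, at -0.61 and -0.59, and was called together with Nefh. None of 9 nociceptor markers, led by Calca and Tac1, was called (median -0.15), and none of 8 markers of satellite glia, led by Apoe and Plekhb1 (median -0.03). Of 8 Schwann cell markers, among them Pmp22, 0 were called as well (median -0.14), and Egr2 was called at 0.59 without CCI 2. Nefh and Egr2 are named after their values were seen. Of 11 markers of spinal cord, which could be cut away with a ganglion, Slc32a1 had 0 counts in every library. The list summed to between 1.92 and 2.79 FPKM, most of it Mog, a myelin gene that was not called.

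All 8 injury genes, among them Vip, Npy, Sprr1a, Gal and Atf3, were called higher in the CCI group, also with any single library left out. The study of these samples names all 8 of them and the macrophage markers Cx3cr1, Cd68 and Csf1r given below, so these calls are not independent evidence. Their summed level was 466, 293 and 258 FPKM in CCI 1, 2 and 3 and 90.0, 91.6 and 83.9 FPKM in sham 1, 2 and 3, with Gap43 the most abundant. CCI 1 was thus the highest library for this list. For Atf3, a transcription factor switched on in injured sensory neurons, the level was 34.9, 20.3 and 16.2 FPKM in CCI 1, 2 and 3 against 1.89, 2.36 and 2.11 FPKM in sham 1, 2 and 3. Of 8 macrophage markers, 3 were called higher in the CCI group (Cx3cr1, Cd68 and Csf1r). Ptprc was also called without CCI 1 (0.58) or sham 1 (0.64), and Aif1 without CCI 3 or sham 3 (0.62 in each). Ptprc and Aif1 are named after their values were seen. The macrophage list summed to 36.4, 32.5 and 26.3 FPKM in CCI 1, 2 and 3 and to no more than 22.7 FPKM in a sham library. Csf1r was the most abundant, and no marker was at 0 in all libraries. Of 6 skeletal muscle markers found, 4 (Ckm, Mylpf, Actn3 and Acta1) were called lower in the CCI group. Their sum was 125 FPKM in sham 1, 18.3 in sham 3 and 5.20 in sham 2, beside 8.40, 5.42 and 4.26 FPKM in CCI 1, 2 and 3, so that sham 1 stood apart. Acta1, the most abundant of them, measured 57.5 FPKM in sham 1. No muscle marker was called without sham 1, CCI 2 or CCI 3. The part of these cell types in the receptor values below was not tested.

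Among the 10 receptor genes, 6 passed the FPKM filter and were tested (Grin1, Grin2b, Grin3a, Grm3, Grm4 and Grm7). None of the 6 was called with edgeR's quasi-likelihood test, against 3.83% of the 26663 rows tested. At an unadjusted p under 0.05 without the fold limit, 1 of the 6 passed, namely Grm4, against 10.7% of all tested rows. DESeq2, edgeR's exact test and limma on log2(FPKM + 0.1) or log2(FPKM + 1) also called 0 of the 6, against 4.18%, 4.02%, 3.97% and 2.14% of all tested rows. No receptor gene passed a Benjamini-Hochberg adjusted p under 0.05, a limit that 0.0938% of all tested rows passed with edgeR's quasi-likelihood test. With the other tools, in the same order, 2.80%, 0.866%, 0.0675% and 0.0713% of all tested rows passed it. The 6 fold changes were all below 0, from -0.50 to -0.02 with a median of -0.12, and the median over all tested rows was 0.01. The signs of Grin2b, Grm3 and Grm7 depended on single libraries: without CCI 1 the log2 fold change was 0.31 for Grin2b and 0.01 for Grm7, and without sham 1 it was 0.02 for Grin2b and 0.09 for Grm3.

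The other 4 genes (Grin2a, Grin2c, Grin2d and Grm5) lay under the filter. They were therefore taken from a fit without the filter, over the 35757 rows with any count, of which 3.84% were called. There Grm5 was called higher and Grin2a lower in the CCI group, both at an unadjusted p and neither after adjustment. A lower level in a whole ganglion can mean fewer cells of a type or less RNA per cell, and these data cannot tell them apart.

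**Figure D1:**
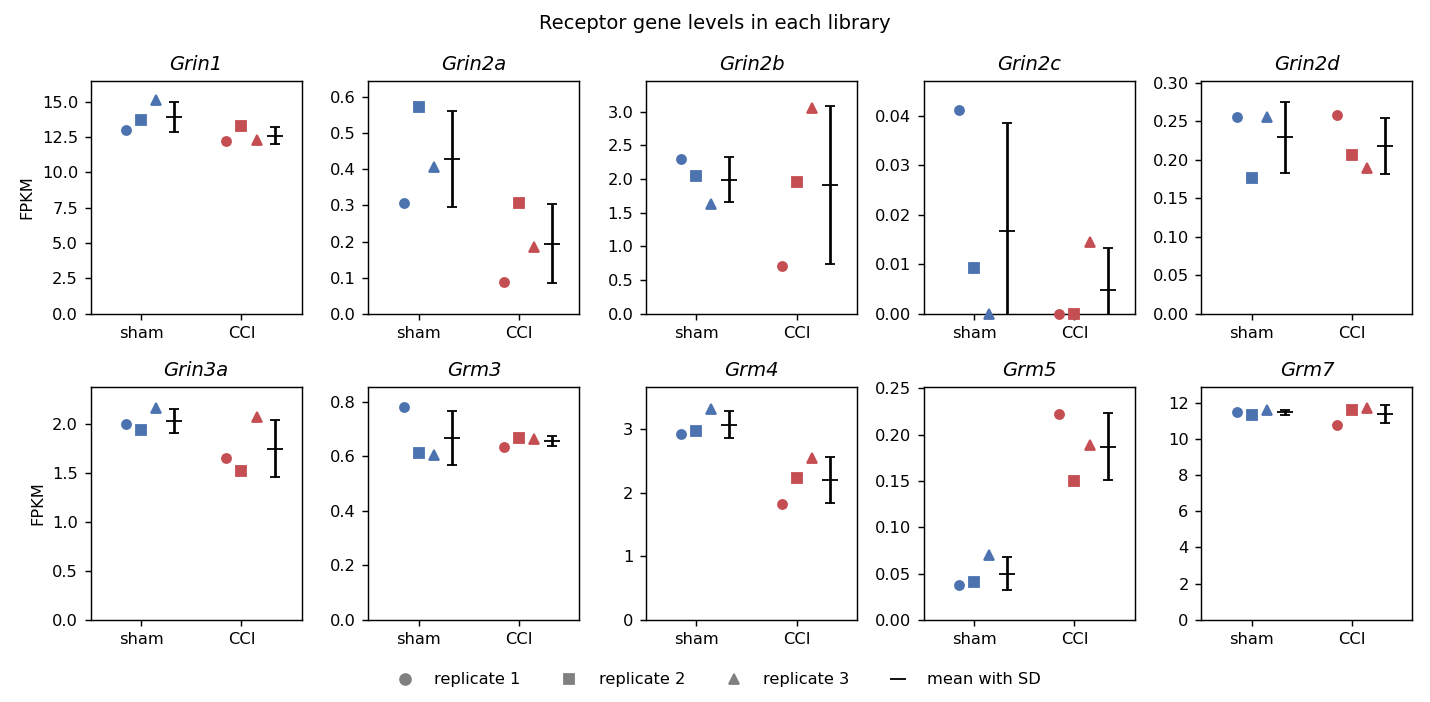
FPKM of the 10 receptor genes in each library, with sham in blue and CCI in red, 1 symbol per replicate and the group mean with its SD in black. The vertical axes start at 0 and differ between genes, and the bars of Grin2c end at 0. The groups stand clear of each other for Grm4 and Grm5.

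Grin1 (chromosome 3, 2506896 to 2534663, minus strand) was the most abundant of the receptor genes in both groups. Its level was 12.2, 13.3 and 12.3 FPKM in CCI 1, 2 and 3 and 13.0, 13.7 and 15.1 FPKM in sham 1, 2 and 3. Sham 3 was the highest library and CCI 2 lay above sham 1, so the groups overlapped. The log2 fold change was -0.16 (standard error 0.08, adjusted p = 0.541, edgeR quasi-likelihood test with Benjamini-Hochberg adjustment), and it stayed between -0.21 and -0.09 when any single library was left out. On the opposite strand, AABR07051241 lies within the span of Grin1 and had 22 counts in sham 3 and 0 in the other libraries, beside 7183 counts of Grin1 in sham 3. The genes closest to Grin1 in pattern were sought among 12667 protein-coding rows, by the root mean square difference of centred log2 CPM over the 6 libraries. They were Dip2a (0.0278), Pelo (0.0309) and Pank4 (0.0323).

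Grin2b (chromosome 4, 169541641 to 169999873, minus strand), the main GluN2 gene here, measured 0.706, 1.96 and 3.05 FPKM in CCI 1, 2 and 3 and 2.29, 2.05 and 1.63 FPKM in sham 1, 2 and 3. The CCI group held both the lowest library, CCI 1, and the highest, CCI 3, and enclosed the sham group. A log2 fold change of -0.08 was estimated with a standard error of 0.47, and it ranged from -0.60 without CCI 3 to 0.31 without CCI 1, with no call in either case. The standard error of Grin2b was the largest among the 6 tested receptor genes, although Grin2b had 993 to 3988 counts per library.

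The low value of CCI 1 was also seen outside the main row. The table holds 6 further rows with the symbol Grin2b, 304 to 2463 bases long, without a strand and inside the span of the main row. Their counts together were 193, 581 and 899 for CCI 1, 2 and 3, against 887, 590 and 549 for sham 1, 2 and 3. CCI 1 was the lowest library in the main row and in 4 of the 6 short rows. In the main row it stood at 32.1% of the mean CPM of the other 5 libraries, and in the longest short row at 25.5%. Whether the short rows come from the same transcript as the main row was not tested. They are not counted as independent measurements. CCI 1 was also the library with the highest injury genes, and whether these are related was not tested.

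**Figure D2:**
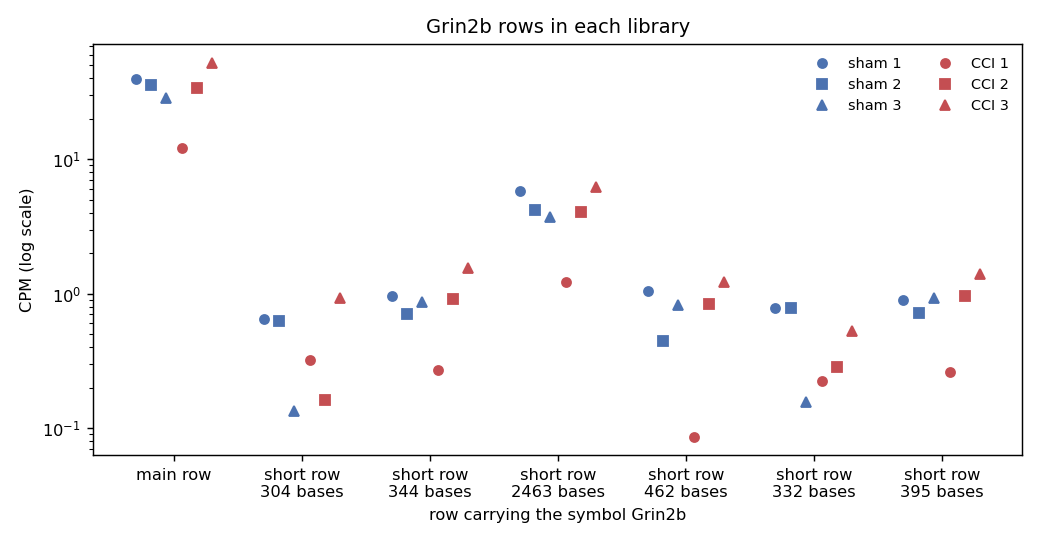
CPM on a log axis for the 7 rows with the symbol Grin2b, with sham in blue, CCI in red and 1 symbol per replicate. CCI 1, the red circle, is the lowest point in the main row, at 12.2 CPM, and in 4 of the short rows.

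Grin2a (chromosome 10, 5930298 to 6119990, plus strand) was counted 34, 116 and 66 times for CCI 1, 2 and 3, against 126, 215 and 160 times for sham 1, 2 and 3. CCI 1 was the lowest library and sham 2 the highest. On the FPKM scale the highest CCI library, at 0.307, lay just under the lowest sham library, at 0.308, while both measured 1.44 CPM, so that the groups met. Group levels were 0.194 ± 0.109 FPKM in the CCI group and 0.429 ± 0.134 FPKM in the sham group (SD, n = 3). In the fit of all rows the log2 fold change was -1.16 (standard error 0.47, adjusted p = 0.549, edgeR quasi-likelihood test with Benjamini-Hochberg adjustment). This call was lost without CCI 1 (-0.81), CCI 3 (-1.13), sham 2 (-0.89) or sham 3 (-1.19), and with limma on log2(FPKM + 0.1) (-0.89) or log2(FPKM + 1) (-0.26).

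The remaining GluN2 genes were near the detection limit or low. Grin2d (chromosome 1, 101820461 to 101856881, minus strand) had 82 to 130 counts per library and a log2 fold change of -0.09 (standard error 0.26) in the fit of all rows. Its groups overlapped. Grin2c (chromosome 10, 103798291 to 103816287, minus strand) was counted 0, 0 and 6 times for CCI 1, 2 and 3, against 19, 4 and 0 times for sham 1, 2 and 3. With 3 of 6 libraries at 0, a difference in Grin2c was not detectable at this depth, where 3 counts, taken as the detection limit, came to at most 0.0398 CPM.

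Grin3a (chromosome 5, 64925194 to 65073012, minus strand), a glycine-binding subunit that lowers the calcium permeability of the channel, measured 1.66, 1.52 and 2.08 FPKM in CCI 1, 2 and 3 and 2.00, 1.94 and 2.17 FPKM in sham 1, 2 and 3. CCI 1 and CCI 2 lay below all sham libraries, and CCI 3 lay among them. Its log2 fold change was -0.24 (standard error 0.13, adjusted p = 0.614, edgeR quasi-likelihood test with Benjamini-Hochberg adjustment).

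Summed over these 6 NMDA subunit genes, with Grin3b left out, the level was 16.7 ± 1.53 FPKM in the CCI group and 18.6 ± 0.818 FPKM in the sham group (SD, n = 3). Of that sum Grin1 made up 75.9 ± 6.48% in the CCI group and 74.7 ± 2.24% in the sham group. The Grin2b share was 4.72, 11.3 and 17.1% in CCI 1, 2 and 3 and 12.8, 11.2 and 8.36% in sham 1, 2 and 3, so the CCI libraries spread more widely than the sham libraries. Grin3a took 8.79 to 11.7% in all 6 libraries. Grin2a lay below Grin2b in every library, with a share of 1.14 ± 0.596% in the CCI group and 2.30 ± 0.724% in the sham group. Shares of FPKM describe RNA and not the make-up of the channels.

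Grm7 (chromosome 4, 142453013 to 143051780, plus strand), a group III receptor of presynaptic release sites with low affinity for glutamate, was the most abundant metabotropic gene. It measured 10.8, 11.6 and 11.7 FPKM in CCI 1, 2 and 3 and 11.5, 11.3 and 11.6 FPKM in sham 1, 2 and 3. CCI 1 was the lowest library, and the groups overlapped. Its log2 fold change was -0.02 with a standard error of 0.06. The row carries the symbol AABR07061755 beside Grm7, and a separate row of AABR07061755 on the opposite strand, which overlaps its start, had 94 to 170 counts per library (0.38, not called). Of all receptor genes, Grm7 alone had rows without a symbol inside its span. There were 3, each on the opposite strand, and the largest had 655 to 749 counts per library and a log2 fold change of 0.15 in the fit of all rows (not called). The table holds 2 further rows with the symbol Grm7, both beyond the end of this row. They had 162 to 358 and 123 to 236 counts per library, and neither was called.

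Grm4 (chromosome 20, 6745682 to 6791519, minus strand), also of group III, had the most separated groups of the 6 tested genes. Its level was 1.82, 2.23 and 2.54 FPKM in CCI 1, 2 and 3 and 2.92, 2.97 and 3.31 FPKM in sham 1, 2 and 3. Every CCI library lay below every sham library. Among the 6 tested receptor genes only Grm4 had groups that did not overlap in CPM, against 17.3% of all tested rows. The group levels were 2.20 ± 0.363 and 3.07 ± 0.211 FPKM (SD, n = 3), the CCI mean being 71.6% of the sham mean. The log2 fold change was -0.50 (standard error 0.15, adjusted p = 0.312, edgeR quasi-likelihood test with Benjamini-Hochberg adjustment), which did not reach the limit of 0.58. Without CCI 3 it was -0.61 and was called, and without CCI 1 it was -0.38. The row of Grm4 is typed as a processed transcript in the table and is overlapped by a longer row of Ppil1 on the same strand, for which the fit of all rows gave 0.01. Of 7 markers of large sensory neurons, 1 was called lower in the CCI group, namely Pvalb, with 60.5, 74.4 and 70.1 FPKM in CCI 1, 2 and 3 and 129, 94.8 and 104 FPKM in sham 1, 2 and 3. Without sham 1 Pvalb was not called. Kcns1 of the same list was called lower without sham 1 (-0.63), CCI 2 (-0.66) or sham 2 (-0.61). The log2 fold change was below 0 for 6 of the 7, with a median of -0.17. In 5 of them (Pvalb, Ntrk2, Ntrk3, Kcns1 and Whrn) every CCI library lay below every sham library, and all but Pvalb are named after their values were seen. No marker of that list was at 0 in all libraries. The list summed to 558, 475 and 386 FPKM in CCI 1, 2 and 3 and 491, 424 and 469 FPKM in sham 1, 2 and 3, most of it Spp1, the marker with a log2 fold change above 0 (0.25). The part of these neurons in the Grm4 value was not tested.

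Grm3 (chromosome 4, 21317695 to 21560490, plus strand), a group II receptor found on neurons and glia, measured 0.636, 0.669 and 0.662 FPKM in CCI 1, 2 and 3 and 0.780, 0.612 and 0.605 FPKM in sham 1, 2 and 3. Sham 1 was the highest library, and the other 5 lay close together. For Grm3 the log2 fold change was -0.04 with a standard error of 0.17. Inside its span lie 2 further rows with the symbol Grm3, with 5 to 35 and 63 to 100 counts per library, neither called. RGD1563349, on the opposite strand, overlaps its end and had 9220 to 11768 counts per library (-0.18, not called).

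Grm5 (chromosome 1, 151439409 to 151783392, plus strand), the group I receptor coupled to phospholipase C, was low in all libraries. Its counts were 62, 42 and 50 for CCI 1, 2 and 3, against 12, 12 and 21 for sham 1, 2 and 3. Every CCI library lay above every sham library, at 0.187 ± 0.0363 against 0.0496 ± 0.0177 FPKM (SD, n = 3). In the fit of all rows the log2 fold change was 1.83 (standard error 0.44, adjusted p = 0.262, edgeR quasi-likelihood test with Benjamini-Hochberg adjustment). It stayed called with each single library left out, with log2 fold changes from 1.67 to 2.16. The adjusted p over the alternatives ran from 0.0577 with DESeq2 to 0.549. With limma on log2(FPKM + 1), a scale on which such low values are compressed, the log2 fold change was 0.18 and Grm5 was not called. No other row of the table overlaps that of Grm5.

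**Figure D3:**
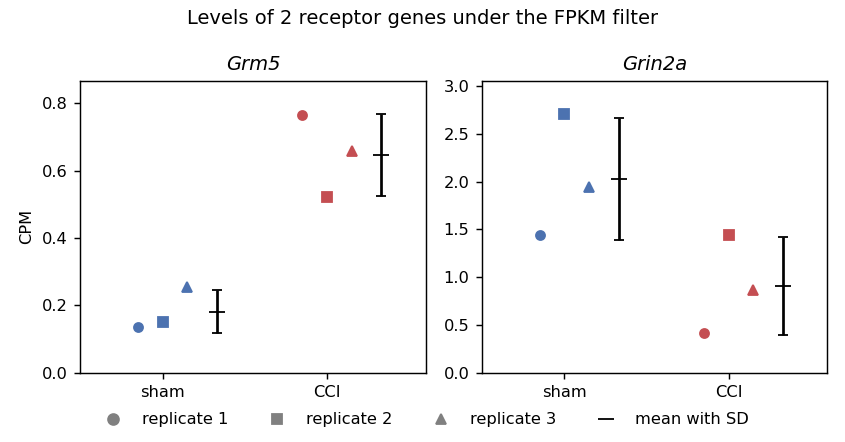
CPM of Grm5 and Grin2a in each library, with sham in blue, CCI in red, 1 symbol per replicate and the group mean with its SD in black. For Grm5 the CCI libraries lie above the sham libraries, and for Grin2a the libraries CCI 2 and sham 1 meet at 1.44 CPM.

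Promoter sequences were at hand for 6 of the 10 genes (Grin1, Grin2c, Grin2d, Grin3a, Grm5 and Grm7) in RefSeq on build GRCr8, which is not the build of the table. Those of Grm5, the receptor gene that was higher in the CCI group, and of Grin1 and Grm7, the most abundant ones, are shown as 300 bases around the RefSeq start of each gene, 5′ to 3′ on the strand of the gene. Capitals mark GC boxes, spelled GGGCGG and read on both strands. The Grm5 window is chr1:150733503-150733802 (plus strand), the Grin1 window chr3:28528705-28529004 (minus strand) and the Grm7 window chr4:145286476-145286775 (plus strand).
Grm5 promoter: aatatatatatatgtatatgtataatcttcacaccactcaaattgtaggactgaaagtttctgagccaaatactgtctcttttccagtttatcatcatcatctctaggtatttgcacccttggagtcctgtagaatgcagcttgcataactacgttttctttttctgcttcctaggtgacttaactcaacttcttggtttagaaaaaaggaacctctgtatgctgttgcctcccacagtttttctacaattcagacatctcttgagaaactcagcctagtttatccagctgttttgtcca
Grin1 promoter: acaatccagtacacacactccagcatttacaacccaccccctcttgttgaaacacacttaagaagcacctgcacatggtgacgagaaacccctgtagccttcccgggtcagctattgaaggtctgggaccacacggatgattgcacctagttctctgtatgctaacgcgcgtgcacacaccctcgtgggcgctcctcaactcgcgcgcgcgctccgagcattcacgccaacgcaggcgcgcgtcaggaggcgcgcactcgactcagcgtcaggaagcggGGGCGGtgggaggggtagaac
Grm7 promoter: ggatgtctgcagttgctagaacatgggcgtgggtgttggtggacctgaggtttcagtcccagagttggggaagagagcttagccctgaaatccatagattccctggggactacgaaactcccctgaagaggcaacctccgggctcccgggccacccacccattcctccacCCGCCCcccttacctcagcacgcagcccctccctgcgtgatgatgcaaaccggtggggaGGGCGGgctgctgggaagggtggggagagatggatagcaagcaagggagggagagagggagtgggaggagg

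The Grm5 window was poor in G and C, at 37.3%, with 1 CpG, while that of Grin1 had 59.7% and 25 CpG and that of Grm7 62.0% and 9 CpG. Over 33469 RefSeq promoters of this length the median was 51.7% with 7.00 CpG. A GC box was found 0 times in Grm5, 1 time in Grin1 and 2 times in Grm7, and 33.1% of all promoters held it. The AP-1 motif, spelled TGANTCA and read on both strands, was present in 7.33% of all promoters and in none of the 6 at hand. The same held for the cyclic AMP response element, spelled TGACGTCA, which 1.83% of all promoters held. A missing motif says only that these letters are not in the window.

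The order of levels was read within each group on the FPKM scale. In the sham group it ran Grin1 (13.9), Grm7 (11.5), Grm4 (3.07), Grin3a (2.04), Grin2b (1.99), Grm3 (0.666), Grin2a (0.429), Grin2d (0.229), Grm5 (0.0496) and Grin2c (0.0168). Grin3a and Grin2b did not differ beyond their spread, while the libraries of Grin1 lay above those of Grm7. In the CCI group Grin1 and Grm7 again came first. Grm4, Grin2b and Grin3a overlapped there, as did Grin2d, Grin2a and Grm5, at 0.218, 0.194 and 0.187 FPKM.

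**Figure D4:**
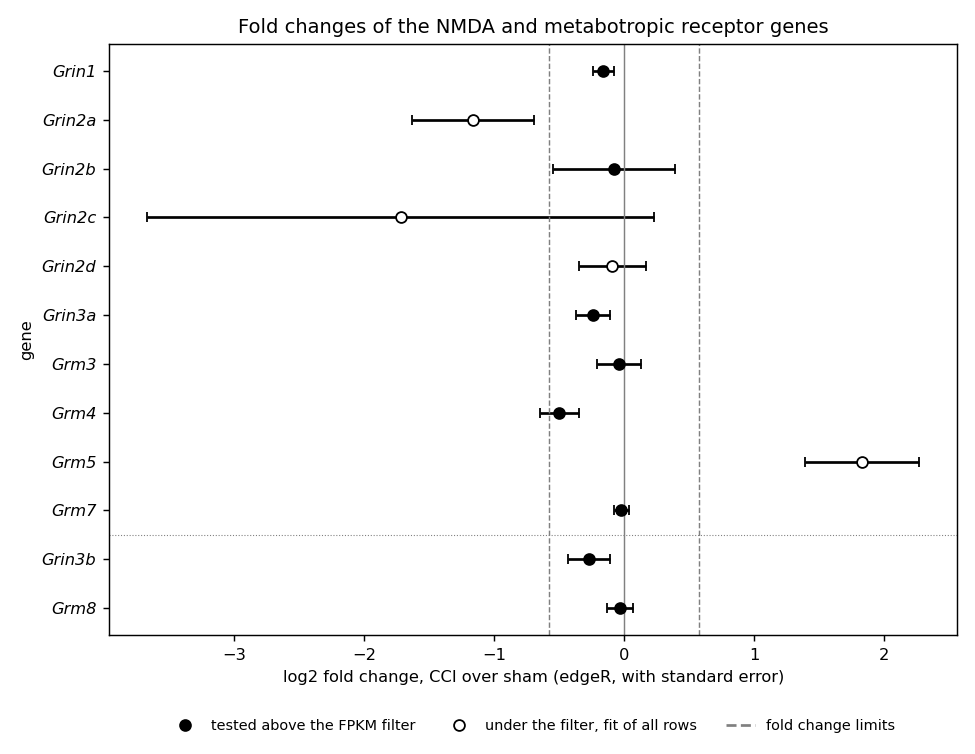
Log2 fold change, CCI over sham, with its standard error from edgeR for the 10 receptor genes and, under the dotted line, Grm8 and Grin3b. Filled points were tested above the FPKM filter and open points come from the fit of all rows; dashed lines mark 0.58 in either direction. All filled points lie between the dashed lines, and Grm5 lies at 1.83.

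Other glutamate genes were read from lists of the rest of the family, AMPA and kainate subunits, supply and clearance of glutamate, and partners of NMDA and of metabotropic receptors. Of 82 genes, 74 were tested, 3 were called higher and 0 lower, with a median log2 fold change of -0.02, while 3.83% of all tested rows were called. Without the fold limit, 16 of the 74 passed an unadjusted p under 0.05, against 10.7% of all tested rows. That number was 15 with DESeq2 (10.9% of all tested rows), 14 with limma on either scale (10.7% and 10.8%) and 6 with edgeR's exact test (6.16%). After Benjamini-Hochberg adjustment 0 of the 74 passed with edgeR's quasi-likelihood test, 4 with DESeq2 (2.80% of all tested rows), 1 with edgeR's exact test (0.866%) and 0 with limma on either scale. In CPM, 13 of the 74 had every CCI library below every sham library, and 13 had every CCI library above. Over all tested rows, 17.3% had groups that did not overlap, in either direction.

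Of the rest of the family, 2 of 5 genes were tested and neither was called. Grm8, a group III receptor, measured 2.79 ± 0.150 FPKM in the CCI group and 2.82 ± 0.254 FPKM in the sham group (SD, n = 3). Grin3b, which is not in the NMDA sum above, measured 1.17 ± 0.0795 FPKM in the CCI group and 1.39 ± 0.193 FPKM in the sham group (SD, n = 3), with a log2 fold change of -0.27 (standard error 0.16). Grm2 had 12 counts in each of CCI 1 and sham 3 and 0 in the others, and Grm6 had at most 51.

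All 9 AMPA and kainate subunits were tested and 0 were called, with log2 fold changes from -0.32 to 0.32 and a median of -0.16. The most abundant, Grik1, encodes the GluK1 kainate subunit of small sensory neurons. It measured 10.9 ± 0.122 FPKM in the CCI group and 12.5 ± 0.241 FPKM in the sham group (SD, n = 3), and all CCI libraries lay below all sham libraries. A log2 fold change of -0.21, with a standard error of 0.04, was estimated for it (adjusted p = 0.174, edgeR quasi-likelihood test with Benjamini-Hochberg adjustment), which was well inside the fold limit. Grik5 followed with 7.14, 6.99 and 7.18 FPKM in CCI 1, 2 and 3 and 6.12, 6.55 and 6.57 FPKM in sham 1, 2 and 3, each CCI library lying above each sham library. The groups also did not overlap for Gria2 (-0.32), Gria3 (-0.30) and Grik4 (-0.18), lower in CCI, and for Grik3 (0.23), higher in CCI. These genes are named after their values were seen.

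Of 19 genes of glutamate supply and clearance, 15 were tested and 0 were called. Glul and Slc1a3 of this list are also satellite glia markers. Glul, the glutamine synthetase of satellite glia, measured 77.7 ± 4.06 FPKM in the CCI group and 75.2 ± 3.14 FPKM in the sham group, and Glud1, the glutamate dehydrogenase, 61.9 ± 2.96 and 66.0 ± 1.41 FPKM (SD, n = 3). Slc17a7, the vesicular glutamate transporter VGLUT1, is named after its values were seen. It measured 34.1, 39.7 and 43.5 FPKM in CCI 1, 2 and 3 and 47.4, 50.2 and 52.9 FPKM in sham 1, 2 and 3. The groups did not overlap, and the log2 fold change was -0.38 (standard error 0.10, adjusted p = 0.260, edgeR quasi-likelihood test with Benjamini-Hochberg adjustment). DESeq2 gave it an adjusted p of 0.0373, and over all alternatives the adjusted p ran up to 0.514.

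Of 23 NMDA receptor partners, 22 were tested and 2 were called higher, Ptpn5 and Nos1. Ptpn5 encodes STEP, a phosphatase that acts on GluN2B, and its level was 9.01, 4.92 and 4.53 FPKM in CCI 1, 2 and 3 and 2.08, 2.31 and 2.15 FPKM in sham 1, 2 and 3. All CCI libraries lay above all sham libraries, with CCI 1 the highest. The log2 fold change was 1.48 (standard error 0.27, adjusted p = 0.138, edgeR quasi-likelihood test with Benjamini-Hochberg adjustment), or 1.10 without CCI 1, and the adjusted p ran from 1.40e-06 with DESeq2 to 0.370 over the alternatives. Nos1, the neuronal nitric oxide synthase tethered near NMDA receptors, measured 4.07, 1.64 and 1.72 FPKM in CCI 1, 2 and 3 and 1.36, 1.26 and 1.25 FPKM in sham 1, 2 and 3. Most of its difference lay in CCI 1: the log2 fold change of 0.93 became 0.36 without that library and was no longer called. It was also not called without sham 1 (0.96), sham 2 (0.92) or sham 3 (0.91), or with limma on log2(FPKM + 0.1) (0.77) or log2(FPKM + 1) (0.53). Ptpn5 and Nos1 also stand in gene lists that the study drew from these same samples, so their calls are not independent evidence.

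All 26 metabotropic receptor partners were tested (Tamalin under its older symbol Grasp) and 1 was called higher. This was Prkcb, a protein kinase C gene downstream of phospholipase C, with 8.12, 19.5 and 9.71 FPKM in CCI 1, 2 and 3 and 5.48, 6.18 and 6.07 FPKM in sham 1, 2 and 3. CCI 2 stood above the other CCI libraries. The log2 fold change was 1.06 (standard error 0.32, adjusted p = 0.321, edgeR quasi-likelihood test with Benjamini-Hochberg adjustment), and without CCI 2 it was 0.58 and fell just short of the call.

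**Figure D5:**
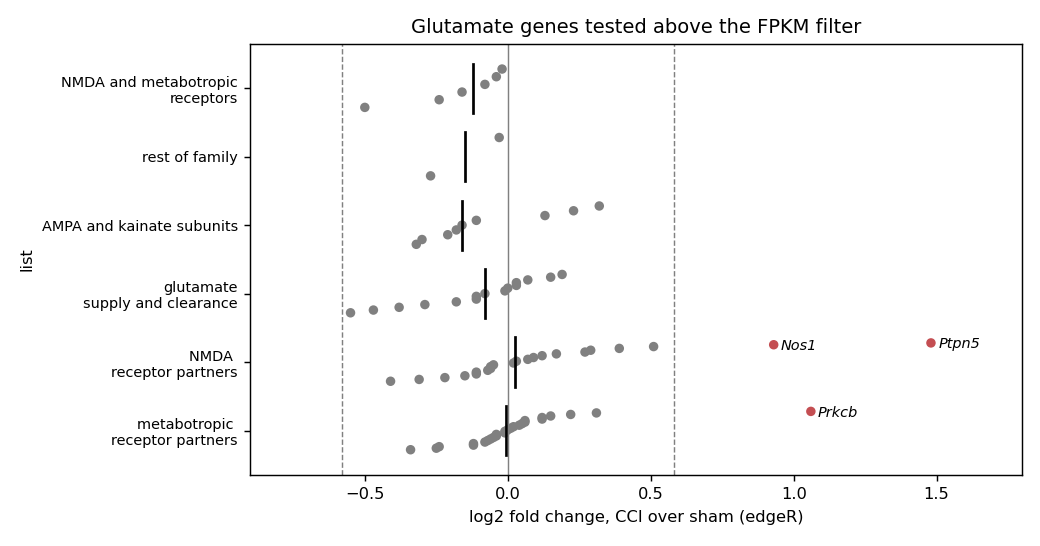
Log2 fold change, CCI over sham, of the tested genes of each glutamate list, 1 point per gene, with the list median as a black bar and dashed lines at 0.58 in either direction. The called genes, in red, are Ptpn5, Nos1 and Prkcb, all to the right of the upper limit, and no receptor gene lies past either limit.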

How the data were processed

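RNA of 3 CCI and 3 sham ganglia was analysed from the table that the authors deposited. Per the labels and the methods, clean reads were mapped with HISAT2 2.0 to the rat genome called V101 and assembled with StringTie 1.3.0, and expression was estimated with StringTie and edgeR; use of strand is not stated. The counts are whole reads per gene row, deposited without normalization. The FPKM values, made by the authors, are these counts over column total and row length, listed at 0.0001 for a count of 0 (read as 0 here). The 6849 rows without a symbol are assembled loci and held 5.37% to 5.72% of the counts.

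The counts of the 26663 rows averaging 0.5 FPKM or more were fitted with edgeR 4.0.16 (glmQLFit and glmQLFTest, TMM factors, trended prior), limma 3.58.1 and DESeq2 1.42.0 being alternatives, in R 4.3.3. Standard errors were derived from the fold change and F. Benjamini-Hochberg adjustment of p ran over all fitted rows. Members under the filter were read from the same fit of the 35757 rows with a count. Python 3.11.15 with pandas 2.3.3, numpy 2.4.6, scipy 1.17.1 and matplotlib 3.10.9 made tables and figures. The tests were tried on simulated counts.

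The members and lists were chosen with earlier results of these data known. Named were all members, the called genes of each list (up to 5 per direction) or its 2 most abundant tested genes, and the 3 nearest patterns to the most abundant member, none being called; other names are marked. The alternatives were DESeq2, RLE factors, the exact test, limma on both FPKM scales, other filters, protein-coding rows, the replicate number as a block and each library left out in turn. After seeing the data, filterByExpr, rows with a symbol alone and the unfiltered base were added, and marker calls were also read with each library left out. Chi-square per degree of freedom between libraries of a group was 51.45 to 74.74, so no library was counted as a copy. Detection limits cover counting error only.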

Additional observations from a re-analysis of the deposited data

How the results depend on the processing

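Of 156 refits of single receptor genes, 143 kept their sign and their side of the limits, 7 lost a call, 1 gained one and 5 changed sign. The losses were those of Grin2a and Grm5 given above, and the gain was that of Grm4 without CCI 3. The number of receptor genes called rose from 0 to 2 without the filter and to 2 with filterByExpr, a setting chosen after seeing the data, since both settings test Grin2a and Grm5. It ranged from 0 to 1 with single libraries left out. The number of other glutamate genes called rose from 3 to 5 with each of these settings and was 2 or 3 with single libraries left out, with Slc7a10 called lower (-0.75) without sham 1 and Camk2d called higher (0.61) without CCI 2, both named after their values were seen. It was 2 with limma on either scale, where Nos1 was not called.

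With single libraries left out, the log2 fold change ranged from -0.60 to 0.31 for Grin2b, from -5.90 to 0.05 for Grin2c, from -0.10 to 0.09 for Grm3 and from -0.04 to 0.01 for Grm7. The libraries behind the positive ends were CCI 1 for Grin2b and Grm7 and sham 1 for Grin2c and Grm3, and the cause was not tested. None of these 4 genes was called in those fits. With a mean FPKM limit of 1, Grm3 was not tested, and with protein-coding rows alone, Grm4 was not tested, so these settings give no value for them. In the fit of all rows, where 2 receptor genes were called, 1 was called with limma on log2(FPKM + 0.1), 0 with log2(FPKM + 1), and 1 or 2 with single libraries left out.

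A block for the replicate number left 0 receptor genes and 3 other glutamate genes called; in the fit of all rows Slc1a6, named after its values were seen, was called without the block (1.20) and not with it (1.29). The Slc1a6 call was also lost without CCI 1 (1.05), CCI 2 (1.27), CCI 3 (1.26), sham 1 (0.91) or sham 3 (1.10), and with limma on log2(FPKM + 1) (0.29). Deviations of libraries with the same number correlated at -0.011, -0.026 and -0.074, and none correlated best with its own number. These values showed no pairing by number, but with 3 libraries per group they cannot settle whether the numbers pair the samples. Depth limits Grin2c, Grm2 and Grm6, with libraries at 0 counts.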
